A study of Mus musculus with 2208 samples.

Results

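Itgam, Ptprc, Itgb2, Itgax, Itgal, Itga4, Itga6, Itgav, Itgb1 and Itgb5 were followed through the course of neurodegeneration in hippocampal microglia. Ptprc encodes CD45, and the other 9 genes encode integrin chains, CD11b among them. The 10 genes were taken by symbol from the 23951 genes of a table of single-cell expression values. Cells had been selected by flow cytometry for the CD11b protein, encoded by Itgam, and the CD45 protein, encoded by Ptprc. Both genotypes, CKp25 mice and their CK littermates, were each studied before p25 was induced (0 weeks, age 3 months) and at 1 week (3 months and 1 week), 2 weeks (3 months and 2 weeks) and 6 weeks (4 months and 2 weeks) after induction. CKp25 mice carry an inducible p25 transgene, a truncated activator of the kinase Cdk5, and CK mice are the controls that carry the transgenic driver without it. In this model the CaMKII alpha promoter turns the transgene on in forebrain neurons once doxycycline is withdrawn, so the model is set by p25 in neurons and not in the sorted cells. Each group held 3 mice, apart from CKp25 at 6 weeks with 4 mice, which gave 25 mice in 8 groups.

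Integrins are cell surface receptors made of 1 alpha and 1 beta chain, which hold cells to the matrix, to other cells or to opsonized particles. Leukocytes share the beta 2 chain, encoded by Itgb2, whose partners include the alpha chains CD11a (Itgal), CD11b (Itgam) and CD11c (Itgax). With CD11b it forms complement receptor 3, which microglia use to take up complement-tagged synapses and debris, and with CD11c complement receptor 4. With CD11a it forms LFA-1, a receptor for ICAM1. CD45 is a receptor tyrosine phosphatase of all nucleated blood cells and of microglia that acts on Src family kinases. In mouse brain, CD11c-positive microglia are known as a minor population that expands near lesions and plaques.

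Promoter sequences from RefSeq (GRCm38.p6, 250 bases before to 50 bases after the gene start) were matched for 7 of the 10 genes, namely Itgam, Ptprc, Itgax, Itga4, Itgav, Itgb1 and Itgb5. Those of Itgam and Itgax are shown because they are neighbouring protein-coding genes on chromosome 7, of which Itgax alone was called between genotypes. Both are given 5′ to 3′ on the plus strand, Itgam from chr7:128062390-128062689 and Itgax from chr7:128129300-128129599. Capitals mark GAGGAA on either strand, a sequence bound by PU.1, the lineage factor of myeloid cells. Shorter or other forms of the site were not searched.
Itgam: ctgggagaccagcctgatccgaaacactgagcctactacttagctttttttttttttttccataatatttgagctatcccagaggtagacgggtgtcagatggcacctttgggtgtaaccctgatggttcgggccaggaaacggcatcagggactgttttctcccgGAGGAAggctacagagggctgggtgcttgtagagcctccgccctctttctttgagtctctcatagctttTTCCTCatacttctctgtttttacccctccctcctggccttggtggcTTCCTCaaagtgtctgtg
Itgax: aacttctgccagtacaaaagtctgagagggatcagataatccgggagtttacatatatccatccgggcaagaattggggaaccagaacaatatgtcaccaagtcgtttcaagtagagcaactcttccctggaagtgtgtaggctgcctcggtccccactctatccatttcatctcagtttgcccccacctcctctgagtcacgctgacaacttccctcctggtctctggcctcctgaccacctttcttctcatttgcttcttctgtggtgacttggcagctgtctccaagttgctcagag
The Itgam window held 3 matches, which began 84 and 15 bases before the start and 32 bases after it, and the Itgax window held 0. Of all 32851 promoters of this length, 28.3% held at least 1 match. Itgav held 2, Itgb1 held 1, Itga4 and Itgb5 held 0, and the 2 Ptprc entries held 1 and 0. No other motif was searched, and a match here describes letters in a window only.

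Of 2208 wells, 2028 held at least 1000 genes at FPKM (fragments per kilobase of transcript scaled to the mapped fragments of a library) of 1 or more and were kept. A cell is said to hold a gene at FPKM of 1 or more. CKp25 mice gave 260, 267, 258 and 231 kept cells at 0, 1, 2 and 6 weeks, and CK mice gave 274, 272, 284 and 182. The median number of genes per cell lay between 1537.5 and 2994 over mice, and the read depth behind single values is unknown. All 2028 kept cells held at least 3 of 11 microglia markers such as Cx3cr1 and Tmem119, as their label would have it, and 58 also held 3 or more markers of another cell type. The well numbered first for each mouse stood apart, with over 8000 genes in 19 of 25. The table holds 2208 wells where the labels state 2183 libraries, a difference of 25 and so as many as there are first wells. Whether the first wells held single cells is not known. All 25 are among the 2028 kept, and values without them are given where they bear on a result. Values of 0 are read as listed at 0, because Gapdh was at 0 in 24.6% of wells.

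Per transcript length, Itgb2 and Itgam were the most abundant of the 10 genes in both genotypes before induction. Itgb2 averaged 157 ± 41.2 FPKM in CKp25 mice and 180.0 ± 24.4 FPKM in CK mice at 0 weeks (SD, n = 3 each). Itgam averaged 138 ± 18.5 FPKM in CKp25 mice and 151 ± 25.3 FPKM in CK mice. Itgb5, Ptprc and Itgb1 followed in CK mice at 0 weeks with 89.1 ± 20.6, 53.5 ± 26.0 and 40.0 ± 10.5 FPKM, and the mouse ranges of neighbours among these 3 overlapped. Itga6 averaged 18.2 ± 0.438 FPKM and Itgav 13.8 ± 2.67 FPKM there, with mouse ranges that did not overlap each other. Itga4, Itgax and Itgal stood last with 2.07 ± 1.20, 0.811 ± 1.15 and 0.399 ± 0.643 FPKM, and the mouse ranges of Itga4 and Itgax overlapped, as did those of Itgax and Itgal. In CK mice the order of the first 7 genes by mean FPKM was the same at all 4 times. In CKp25 mice Itgax stood at rank 5 at 2 and 6 weeks, ahead of Itgb1, Itga6, Itgav, Itga4 and Itgal, although mouse ranges of Itgax and Itgb1 overlapped at both times.

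**Figure D1:**
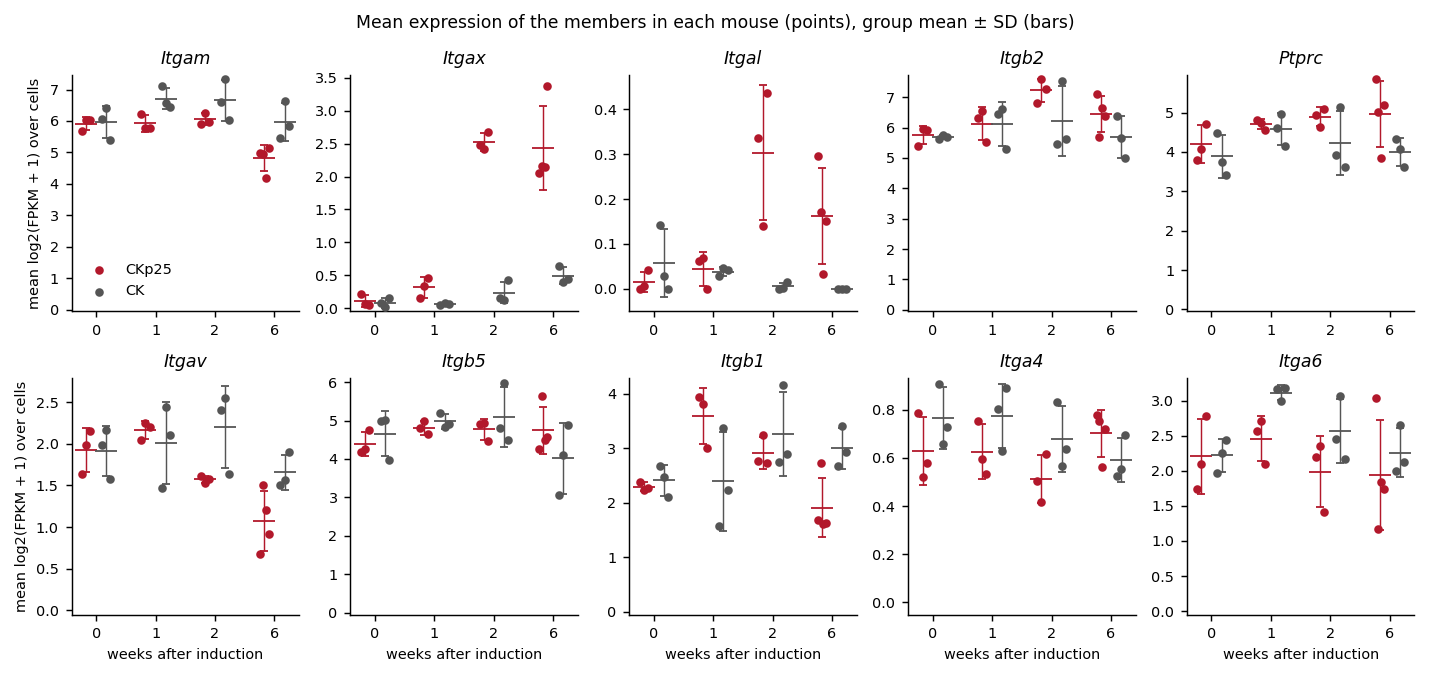
Mean over cells of log2(FPKM + 1) (y axis) for each of the 10 genes in each mouse (points) by week after induction (x axis), CKp25 in red and CK in grey, with group means and SD as bars. The Itgax points of CKp25 mice at 2 and 6 weeks lie between 2.05 and 3.38, above all CK mice, which lie at 0.64 or less.

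The comparison of genotypes at each week asked which of these receptors changed in microglia once p25 was on. Differences below are CKp25 minus CK in the mouse mean of log2(FPKM + 1), ± standard error, with adjusted p from limma over 9435 genes. Since cells at 0 enter this mean, fewer cells with a transcript and less transcript per cell both lower it. Of the 10 genes 9 passed the filter on low values and were tested, and Itgal did not pass. Itgax was the only one called at any week. It was higher in CKp25 mice at 2 weeks, when 1 of the 9 was called higher against 6.14% of all genes tested, and at 6 weeks, when 1 of the 9 was called higher against 4.21%. At 1 week 0 of the 9 were called higher or lower, against 3.90% and 0.392% of all genes, and 1 of the 9 had an unadjusted p under 0.05. None was called lower at 2 weeks, where 2.24% of all genes were, or at 6 weeks, where 1.54% were. At 0 weeks 0 of the 9 were called, as were 0% of all genes, and 0 of the 9 had an unadjusted p under 0.05. On the log2(FPKM + 1) scale, 0 of the 9 genes had CKp25 and CK mice that did not overlap at 0 weeks, against 7.51% of all genes. The mice did not overlap in 3 genes at 1 week, against 20.7%, in 2 genes at 2 weeks, against 24.1%, and in 3 genes at 6 weeks, against 12.9%. With 9 genes these counts are a description.

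**Figure D2:**
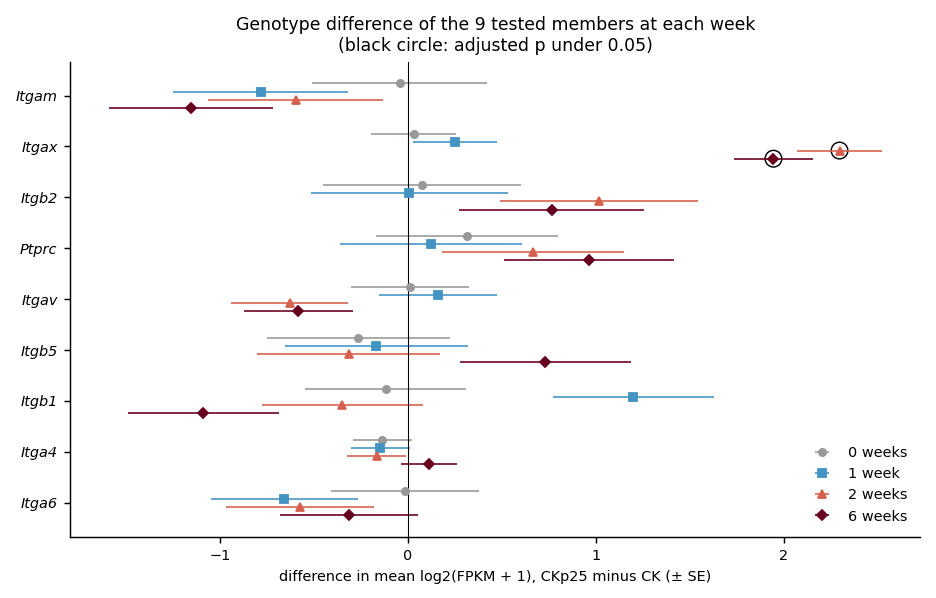
Difference in mean log2(FPKM + 1), CKp25 minus CK (x axis), ± standard error from limma, for the 9 tested genes (rows) at each week (colours and symbols), with a black circle where adjusted p was under 0.05. Circles stand at Itgax alone, at 2.29 for 2 weeks and 1.94 for 6 weeks.

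Itgax, which encodes CD11c, was nearly silent in both genotypes before induction and rose in CKp25 mice at 2 weeks. At 0 weeks the CKp25 mice had 1.57, 0.251 and 0.149 FPKM, and the CK mice had 0.296, 0.0116 and 2.13 FPKM. At 1 week the CKp25 mice had 0.831, 1.46 and 3.61 FPKM, against 0.257, 1.36 and 0.355 FPKM in CK mice. The genotypes overlapped in FPKM at both of these weeks. On the log2(FPKM + 1) scale they overlapped at 0 weeks but not at 1 week. The CKp25 mice then had 0.148, 0.335 and 0.459, against 0.0536, 0.0815 and 0.0577 in CK mice. Such a lack of overlap, in either direction, was seen in 20.7% of all genes at 1 week. At 2 weeks Itgax had 30.6, 28.5 and 39.1 FPKM in CKp25 mice, against 1.76, 1.12 and 2.43 FPKM in CK mice. At 6 weeks it had 16.8, 24.02, 19.9 and 42.8 FPKM in CKp25 mice, against 4.63, 2.43 and 3.67 FPKM in CK mice. Every CKp25 mouse was above every CK mouse at 2 and at 6 weeks. The ratio of the group means, CKp25 over CK, was 18.5 at 2 weeks and 7.24 at 6 weeks. The difference was 2.29 ± 0.22 at 2 weeks (adjusted p = 4.03e-10) and 1.94 ± 0.21 at 6 weeks (adjusted p = 5.44e-09, limma). It was 0.03 ± 0.22 at 0 weeks (adjusted p = 1.00) and 0.25 ± 0.22 at 1 week (adjusted p = 0.621). With the first wells left out it was 2.28 ± 0.23 at 2 weeks and 1.92 ± 0.21 at 6 weeks.

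The genotype effect on Itgax itself differed between weeks. It was larger at 2 than at 0 weeks by 2.26 ± 0.32 (adjusted p = 6.22e-06), at 6 than at 0 weeks by 1.91 ± 0.31 (adjusted p = 9.27e-05) and at 2 than at 1 week by 2.04 ± 0.32 (adjusted p = 5.05e-05, limma). In these comparisons 2.16%, 1.54% and 1.28% of all genes were called higher, and Itgax was the only one of the 9 called. Between 1 and 0 weeks 0 of the 9 were called, against 1.13% of all genes, and 1 of the 9 had an unadjusted p under 0.05. Between 6 and 2 weeks 0 of the 9 were called, against 0.0424%, with 0 of the 9 at an unadjusted p under 0.05. The Itgax effect changed there by -0.35 ± 0.31 (adjusted p = 0.949), with a standard error about as large as the change. The 6 and 0 week and the 2 and 1 week comparisons lost their calls when the log was taken of the mean FPKM of a mouse, with adjusted p of 0.0623 and 0.0883.

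Both the share of cells holding Itgax and the level in those cells were higher in CKp25 mice at the late weeks. At 2 weeks 46.8%, 44.8% and 51.5% of the cells of CKp25 mice held Itgax, against 3.12%, 4.17% and 10.9% of the cells of CK mice. At 6 weeks the shares were 41.5%, 40.4%, 40.4% and 61.7% in CKp25 mice, and 13.6%, 10.6% and 9.89% in CK mice. The groups did not overlap, with exact permutation p = 0.1 at 2 weeks and p = 0.0571 at 6 weeks (2-sided), each the smallest p these numbers of mice allow. At 1 week 3.49%, 9.09% and 9.68% of the cells of CKp25 mice held Itgax, against 1.19%, 1.05% and 1.08% in CK mice. These shares did not overlap either (exact permutation p = 0.1, the smallest possible), while limma did not call the gene at this week. Among cells that held it, the mean of log2(FPKM + 1) was 5.30 ± 0.09 in CKp25 mice and 3.94 ± 1.06 in CK mice at 2 weeks (SD, n = 3 each). At 6 weeks it was 5.26 ± 0.23 in 4 CKp25 mice and 4.29 ± 0.49 in 3 CK mice. The CK values rest on 17 cells at 2 weeks and 20 cells at 6 weeks, against 122 and 111 cells in CKp25 mice. In CK mice the share averaged 2.22 ± 1.18%, 1.11 ± 0.0739%, 6.05 ± 4.20% and 11.4 ± 1.98% at 0, 1, 2 and 6 weeks (SD, n = 3 each), and no Itgax change over time was called in them. Without the first wells the share was 47.1 ± 3.35% in CKp25 mice and 5.40 ± 3.89% in CK mice at 2 weeks, and 44.9 ± 10.9% in 4 CKp25 mice and 10.1 ± 1.47% in 3 CK mice at 6 weeks. At 0 weeks it was then 1.92 ± 1.26% in CKp25 mice and 1.14 ± 1.15% in CK mice, where 3 of the 6 CK cells with Itgax were first wells.

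**Figure D3:**
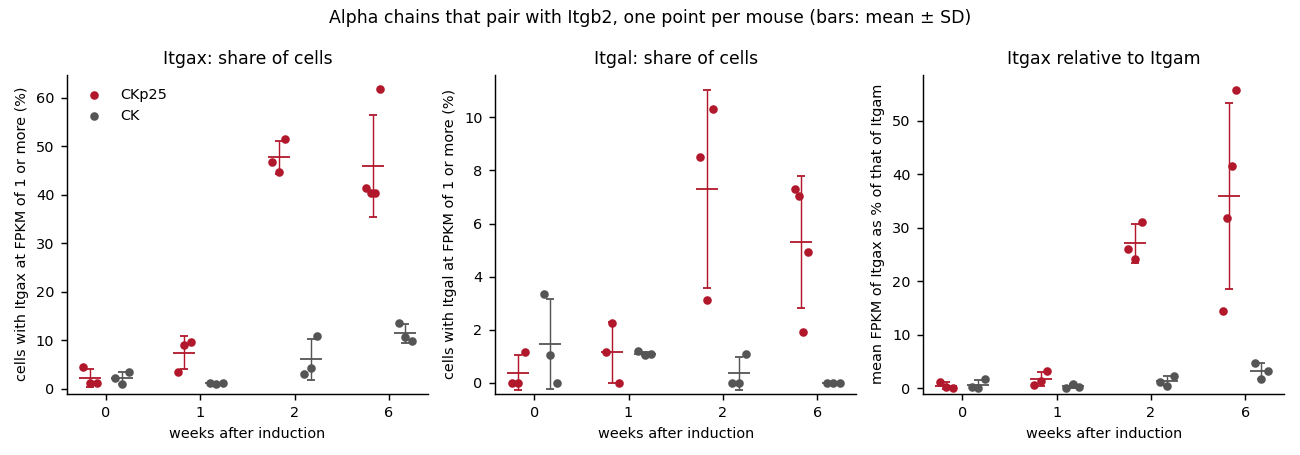
Percent of cells holding Itgax (left) and Itgal (middle), and the mean FPKM of Itgax as percent of that of Itgam (right), in each mouse (points) by week (x axis), CKp25 in red and CK in grey, bars for mean and SD. Itgax reached 24.1% to 31.2% of the Itgam level in CKp25 mice at 2 weeks and 14.4% to 55.9% at 6 weeks, against 4.69% or less in every CK mouse.

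Every cell that held Itgax, in either genotype and at any week, also held at least 3 microglia markers. All kept cells did, so any subset of them would, and this does not set the cells with Itgax apart. Of the 122 CKp25 cells with Itgax at 2 weeks, 1 held 3 or more monocyte markers and 0 held 3 or more markers of dendritic, B or T and NK cells. Of the 111 at 6 weeks, 2 held 3 or more monocyte markers and 0 held as many of the other types named. Of border-associated macrophage markers, 0 of the 122 and 1 of the 111 held 3 or more. In CK mice 1 of 17 cells with Itgax at 2 weeks and 3 of 20 at 6 weeks held as many. The summed level of 6 monocyte markers was 25.2 to 30.1 FPKM in CKp25 mice against 0.308 to 21.0 FPKM in CK mice at 2 weeks. No cell held Chil3 or F13a1 in CKp25 mice or Ly6c2 in CK mice at that week. At 6 weeks it was 6.57 to 54.9 FPKM in CKp25 mice and 0.781 to 27.4 FPKM in CK mice, and no cell held Vcan in CKp25 mice or Ly6c2 or Chil3 in CK mice. For 5 dendritic cell markers it was 0.409 to 4.02 FPKM in CKp25 and 0.678 to 2.84 FPKM in CK mice at 2 weeks. At 6 weeks these 5 markers summed to 1.02 to 182 FPKM in CKp25 and 0.0221 to 3.51 FPKM in CK mice. There 1 kept CKp25 cell, of mouse 1, held 3 or more of them, and that cell did not hold Itgax. No cell of CKp25 mice held Clec9a or Cd209a at 2 weeks. At that week 6 border-associated macrophage markers summed to 0.129 to 2.45 FPKM in CKp25 and 0.622 to 141 FPKM in CK mice. No cell of CKp25 mice held Cd209f then. At 6 weeks these 6 markers summed to 29.4 to 162 FPKM in CKp25 and 1.94 to 69.0 FPKM in CK mice. Levels of several microglia markers were lower in CKp25 mice at the same weeks. P2ry12, a purinergic receptor of homeostatic microglia, had 408 to 497 FPKM in CKp25 mice against 1715 to 2952 FPKM in CK mice at 2 weeks. At 6 weeks P2ry12 had 211 to 621 FPKM in CKp25 mice and 1567 to 1685 FPKM in CK mice. Tmem119 had 527 to 810.3 FPKM in CKp25 and 1330.4 to 2551 FPKM in CK mice at 2 weeks, and 267 to 685 FPKM in CKp25 and 1025 to 1250.2 FPKM in CK mice at 6 weeks. P2ry13, Gpr34 and Sall1 likewise lay lower in every CKp25 mouse than in every CK mouse at both weeks, as did Cx3cr1 at 2 weeks and Fcrls at 6 weeks. The genotypes overlapped in Csf1r, Olfml3 and Aif1 at both weeks, in Fcrls at 2 weeks and in Cx3cr1 at 6 weeks. The part of these markers in the Itgax result was not tested. With cells holding 3 or more markers of another type left out, the difference was 2.26 ± 0.23 at 2 weeks and 2.06 ± 0.21 at 6 weeks. In all 7 CKp25 mice of these weeks, the cells with Itgax had more genes in the median than the other cells of the mouse. Their medians were 2244 to 3512 genes, against 1503 to 2848 genes in cells without it. Ptprc was held by a larger share of cells with Itgax than without in 6 of the 7 mice, with medians of 95.3% and 81.1%. Itgam was held more often in 6 of 7 mice, with 90.5% and 84.8%, and Itgb2 in 3 of 7 mice, with 96.0% and 91.7%. The part of the number of genes per cell in these shares was not tested.

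Itgal encodes CD11a, the alpha chain of LFA-1, and was found in few cells. At 2 weeks 8, 3 and 7 cells of the CKp25 mice held it, against 0, 0 and 1 cells of the CK mice. At 6 weeks 3, 4, 1 and 4 cells of the CKp25 mice held it, and it was listed below FPKM of 1 in all 182 CK cells. The share of cells was 7.31 ± 3.73% in CKp25 mice and 0.362 ± 0.628% in CK mice at 2 weeks (SD, n = 3 each). The mice did not overlap at 2 weeks (exact permutation p = 0.1, 2-sided) or at 6 weeks (p = 0.0571, exact permutation), the smallest values possible. Without the first wells, the share at 6 weeks was 0% to 7.50% in CKp25 mice and 0% in CK mice, so that 1 CKp25 mouse equalled the CK mice. In a fit without the filter on low values the Itgal difference was 0.30 ± 0.06 at 2 weeks (adjusted p = 0.00479) and 0.16 ± 0.05 at 6 weeks (adjusted p = 0.179, limma). At 0 and 1 week Itgal was held by 1 and 3 cells of CKp25 mice, against 4 and 3 cells of CK mice.

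Itgb2, the chain that all 3 of these alpha chains need, had the highest mean FPKM of the 10 genes in every group. It was not called, and Itgam was above it in single mice of both genotypes. At 2 weeks it had 229, 265 and 282 FPKM in CKp25 mice, against 148, 286 and 139 FPKM in CK mice. One CK mouse stood with the CKp25 mice and above them all, and the other CK mice stood below. The difference was 1.02 ± 0.53 (adjusted p = 0.274, limma), and without that CK mouse it was 1.68 ± 0.52 (adjusted p = 0.0343). With each mouse left out in turn, it ranged from 0.64 to 1.68. At 6 weeks the difference was 0.76 ± 0.49 (adjusted p = 0.494). Of the cells with Itgax, 97.5% of 122 also held Itgb2 in CKp25 mice at 2 weeks and 94.6% of 111 at 6 weeks. In CK mice it was 94.1% of 17 cells and 95.0% of 20 cells. Cells holding both Itgax and Itgb2 made up 46.6 ± 4.21% of the cells of CKp25 mice and 5.69 ± 3.58% of the cells of CK mice at 2 weeks (SD, n = 3 each). Cells holding both Itgam and Itgb2 made up 89.2 ± 5.93% and 88.3 ± 8.37% in CKp25 and CK mice at that week.

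Itgam and Ptprc, the genes of the sorting markers, were found in most cells of every mouse, and neither was called at any week. The cells had been gated on the encoded proteins, so these levels describe cells already selected for them, and the part of the gate was not tested. At 6 weeks Itgam had 117, 75.3, 47.9 and 76.5 FPKM in CKp25 mice, against 98.8, 148 and 114 FPKM in CK mice. On the log2(FPKM + 1) scale the CKp25 mice had 4.98, 4.96, 4.20 and 5.14, all below the CK mice at 5.45, 6.62 and 5.85. The difference was -1.16 ± 0.44 (adjusted p = 0.128, limma), and it passed the threshold under 5 of 41 alternatives, with the lowest adjusted p of 0.00531 after quantile normalization. The Itgam differences at 0, 1 and 2 weeks were -0.04 ± 0.47, -0.78 ± 0.47 and -0.60 ± 0.47, with adjusted p of 1.00, 0.400 and 0.525. For Ptprc the CKp25 mice at 6 weeks had 147, 76.8, 43.9 and 64.3 FPKM, against 59.5, 56.1 and 38.6 FPKM in CK mice. The groups overlapped, and the difference was 0.96 ± 0.45 (adjusted p = 0.279). At 0, 1 and 2 weeks the Ptprc difference was 0.31 ± 0.48, 0.12 ± 0.48 and 0.66 ± 0.48.

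Most cells held transcripts of both sorting markers, and a minority held 1 of the 2. Of all 2028 kept cells, 73.9% held both, 16.96% Itgam without Ptprc, 6.76% Ptprc without Itgam and 2.42% neither. Cells with neither had a median of 1583 genes, against 2506 genes in cells with both, and 98.0% of them held Cx3cr1, a microglial chemokine receptor. Cells with Ptprc and no Itgam made up 22.0%, 10.5%, 11.5% and 13.6% of the cells of CKp25 mice at 6 weeks, against 6.82%, 0% and 5.49% in CK mice. These shares rest on 9, 6, 6 and 11 cells of the CKp25 mice and 3, 0 and 5 cells of the CK mice. Cells with Itgam and no Ptprc made up 7.32%, 12.3%, 15.4% and 4.94% in CKp25 mice, against 20.5%, 17.02% and 24.2% in CK mice. At 0 weeks these classes overlapped between genotypes, with 9.22 ± 2.26% and 7.75 ± 3.14% of cells having Ptprc alone in CKp25 and CK mice (SD, n = 3 each). At 1 week Ptprc alone was held by 8.14%, 7.95% and 7.53% of cells of CKp25 mice, against 3.57%, 2.11% and 4.30% in CK mice. The genotypes did not overlap there, while both classes overlapped at 2 weeks. These shares are a description, without a test.

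**Figure D4:**
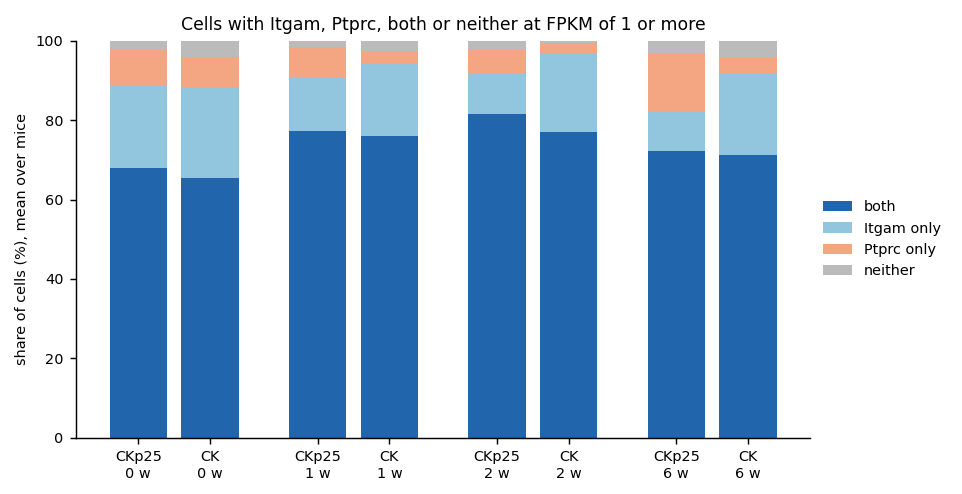
Share of cells (y axis, percent, mean over mice) that held both, 1 or neither of the transcripts of the sorting markers, Itgam and Ptprc, in each group (x axis). Ptprc without Itgam made up 14.4% of cells in CKp25 and 4.10% in CK mice at 6 weeks.

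The remaining integrins bind matrix proteins and were not called between genotypes at any week. Itgb1, the beta 1 chain that joins many alpha chains into matrix receptors, had 65.9, 49.1 and 45.6 FPKM in CKp25 mice at 1 week, against 12.1, 49.997 and 39.9 FPKM in CK mice. The difference was 1.20 ± 0.43 (adjusted p = 0.109, limma), and without the highest CK mouse it was 1.69 ± 0.45 (adjusted p = 0.0186). With each mouse left out in turn, this difference ranged from 0.79 to 1.69. At 6 weeks Itgb1 had 16.1, 30.0, 10.2 and 15.8 FPKM in CKp25 mice, against 26.7, 42.4 and 37.7 FPKM in CK mice. The difference was -1.09 ± 0.40 (adjusted p = 0.115), and without the CKp25 mouse at 30.0 FPKM it was -1.36 ± 0.42 (adjusted p = 0.0476). Over the omission of each mouse in turn, the difference at 6 weeks ranged from -1.36 to -0.89. The direction of the Itgb1 difference was not the same at these weeks, and neither passed the threshold with all mice.

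Itgav encodes the alpha V chain and Itgb5 a beta chain that pairs with it into a vitronectin receptor. Itgav had 6.42, 6.43 and 5.98 FPKM in CKp25 mice at 2 weeks, against 16.6, 16.9 and 8.48 FPKM in CK mice, without overlap. The difference was -0.63 ± 0.31 at 2 weeks (adjusted p = 0.246) and -0.58 ± 0.29 at 6 weeks (adjusted p = 0.327, limma). At 6 weeks Itgav had 4.09, 6.97, 4.09 and 3.45 FPKM in CKp25 mice and 6.59, 11.8 and 9.40 FPKM in CK mice. Itgb5 had 77.0, 87.6, 62.8 and 69.2 FPKM in CKp25 mice at 6 weeks, against 34.5, 55.8 and 77.3 FPKM in CK mice, with a difference of 0.73 ± 0.46 (adjusted p = 0.478). The groups overlapped, and at 2 weeks the Itgb5 difference was -0.32 ± 0.49. Itga6, the alpha chain of laminin receptors, had 17.4, 15.6 and 13.7 FPKM in CKp25 mice at 1 week, against 34.9, 30.5 and 30.1 FPKM in CK mice. Every CKp25 mouse was below every CK mouse, and the difference was -0.66 ± 0.39 (adjusted p = 0.400). Itga4, the alpha chain of a receptor for VCAM1 and fibronectin, stayed between 0.718 and 3.45 FPKM in all 25 mice. Its difference lay between -0.17 and 0.11 over the 4 weeks. The share of cells holding Itga4 was 31.4%, 29.5% and 18.3% in CKp25 mice at 1 week, against 35.7%, 33.7% and 43.0% in CK mice. At 2 weeks it averaged 22.7 ± 3.47% in CKp25 mice and 33.4 ± 4.74% in CK mice (SD, n = 3 each). Every CKp25 mouse was below every CK mouse in this share at both weeks (exact permutation p = 0.1, 2-sided, the smallest possible). Among the other genes, shares also did not overlap for Itgam at 1 week, with 90.6 ± 0.297% in CKp25 and 94.0 ± 2.62% in CK mice, and for Itgb2 at 0 weeks, with 86.9 ± 1.05% in CKp25 and 83.2 ± 2.80% in CK mice (SD, n = 3 each). The Itgb2 case fell before induction. No count over all genes stands beside the genes whose shares did not overlap, Itgax and Itgal among them, so these cases are a description.

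Changes over time were tested within each genotype. In CKp25 mice Itgax rose by 2.42 ± 0.22 at 2 against 0 weeks (adjusted p = 9.33e-11), by 2.33 ± 0.21 at 6 against 0 weeks (adjusted p = 4.78e-11) and by 2.21 ± 0.22 at 2 against 1 week (adjusted p = 1.70e-09, limma). Itgax was the only one of the 9 called in these 3 comparisons, in which 11.1%, 4.63% and 2.41% of all genes were called higher. Between 6 and 2 weeks 0 of the 9 were called, against 2.80% of all genes, with 2 of the 9 at an unadjusted p under 0.05. Itgb1 rose in CKp25 mice at 1 against 0 weeks by 1.29 ± 0.43 (adjusted p = 0.0462), where 9.55% of all genes were called higher and the median of all genes was 0.18. It had 65.9, 49.1 and 45.6 FPKM at 1 week, against 33.5, 20.6 and 27.8 FPKM at 0 weeks, without overlap. This call was held under 18 of 40 alternatives, whose adjusted p lay between 0.0192 and 0.494, and was lost with the number of genes per cell as a covariate (adjusted p = 0.166). In CK mice 0 of the 9 were called at 1, 2 or 6 weeks against 0 weeks, as were 0% of all genes in each comparison. The number of the 9 with an unadjusted p under 0.05 was 1, 0 and 0 there.

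Partners of these receptors were read from lists chosen with earlier results of the data known, and the lists are described by counts. For the genes of these lists, rose and fell mean higher and lower in CKp25 than in CK mice at the week named. Of 26 integrin ligands that were listed, 12 were tested, of which 6 rose and 1 fell at 2 weeks, 3 rose and 0 fell at 6 weeks, and 0 were called at 1 week. Over all genes 6.14% were called higher and 2.24% lower at 2 weeks, and 4.21% and 1.54% at 6 weeks. Their median difference was 0.39 at 2 weeks, against -0.001 for all genes tested, and 0.11 at 6 weeks, against -0.04. Spp1, osteopontin, a secreted ligand of alpha V and beta 1 integrins, rose by 2.11 ± 0.31 at 2 weeks (adjusted p = 8.22e-06, limma). C3, the source of the complement fragment bound by CD11b and CD11c integrins, rose by 1.00 ± 0.14 at 2 weeks and 0.85 ± 0.13 at 6 weeks. Cells holding C3 made up 22.7% in CKp25 and 1.43% in CK mice at 2 weeks. Vcam1, a ligand of alpha 4 integrins, rose by 0.57 ± 0.13 at 2 weeks and 0.69 ± 0.12 at 6 weeks. Icam1, the ligand of LFA-1, rose by 1.39 ± 0.40 at 2 weeks (adjusted p = 0.0191), and Adam9 and Thbs1 rose by 0.82 ± 0.26 and 0.41 ± 0.11. These 3 were named after their values were seen. Jam3, a junctional adhesion molecule, fell by 0.70 on the log2 scale at 2 weeks (adjusted p = 0.00672). The calls of Icam1, Adam9, Thbs1 and Jam3 were lost under 6, 11, 4 and 3 of 41 alternatives, among them the omission of single mice.

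Of 20 genes of CD45 substrates and proximal signalling 17 were tested, again as CKp25 minus CK. Of these, 3 rose at 2 weeks, 2 rose at 6 weeks and 0 fell, against 6.14% and 4.21% of all genes called higher. Fgr, a Src family kinase of myeloid cells, rose by 1.17 ± 0.16 at 2 weeks (adjusted p = 4.68e-07) and 1.12 ± 0.15 at 6 weeks (adjusted p = 4.87e-07, limma). Cd22, a sialic acid receptor that can bind CD45, rose by 1.11 ± 0.18 at 2 weeks and 1.37 ± 0.17 at 6 weeks. Fyn, another Src family kinase, rose by 0.46 ± 0.08 at 2 weeks. The median difference of the list was 0.08 at 2 weeks and 0.05 at 6 weeks. Of 30 activation and adhesion adaptors 23 were tested, and Flna, the actin crosslinker filamin A, was the only one called, higher by 0.97 ± 0.27 at 1 week (adjusted p = 0.0250), where 3.90% of all genes were called higher. The Flna call held under 33 of 41 alternatives and was lost on leaving out any of 4 single mice of that week. Of 17 other integrin subunits 3 were tested. Itga5, the fibronectin receptor chain, rose by 0.58 ± 0.18 at 1 week (adjusted p = 0.0469), a call held under 19 of 41 alternatives. Itga9 fell by 0.64 on the log2 scale at 6 weeks (adjusted p = 0.0246), with 6.66% of cells holding it in CKp25 and 21.7% in CK mice. The Itga9 call held under 37 of 41 alternatives and was lost on leaving out CKp25 mouse 3, CKp25 mouse 4 or CK mouse 2 of that week. Of 12 other receptor tyrosine phosphatases 6 were tested, and 0 were called at 1, 2 or 6 weeks. Ptprm had the smallest p among them, with a difference of -0.78 ± 0.33 at 6 weeks (adjusted p = 0.211).

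The tested genes most like Itgax over the 25 mouse profiles were Axl, Fgl2 and Oasl2, with Pearson r of 0.985, 0.981 and 0.972. After the mean of each group was removed, r was 0.753, 0.761 and 0.609. These values describe 25 mice that share the group differences above, and carry no test.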

How the data were processed

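Single hippocampal microglia were sorted into wells and prepared with a modified Smart-seq2 protocol, per the labels' protocols. The authors deposited FPKM values per gene and well, and the submitters' processing notes name Cufflinks 2.2 and build mm9. Counts are not used here, so the depth per cell is unknown. The labels state a median of 251353 mapped reads per cell over 2183 libraries, while the table holds 2208 wells.

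A well was kept if 1000 or more genes reached FPKM of 1, which left 2028 wells. The mean over the kept cells of a mouse of log2(FPKM + 1), with a pseudocount of 1, was fitted with limma 3.58.1 (trend, robust; R 4.3.3) over 25 mice in 8 groups with 17 residual degrees of freedom. A gene was tested if 3 or more mice had it at FPKM of 1 or above in 10% or more of their cells, which held for 9435 of 23951 genes. All p-values are 2-sided. Adjusted p from limma were adjusted by Benjamini-Hochberg across the tested genes, with a threshold of 0.05. The p-values named unadjusted and those of the permutation tests were not adjusted. A fold change on this scale understates the change of low genes. Shares of cells were compared with exact permutation tests over mice. Python 3.11.15, numpy 2.4.6, pandas 2.3.3 and scipy 1.17.1 were used, and the fit was tested on simulated data.

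The members and lists were chosen with earlier results of these data known. Named were all 10 genes, in each list the genes past the threshold, up to 4 by smallest p (or, without any, the 1 with the smallest p), and the 3 genes most correlated with a called member. Alternatives covered pseudocounts, filters, rescaling, normalization, covariates, a replicate block and the omission of each mouse. Promoters come from RefSeq GRCm38.p6, and no coordinates of the deposited table were used. The summed level of the whole microglia marker list is not reported here, and single markers of it are given in its place.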

Additional observations from a re-analysis of the deposited data

Results flagged for a closer look

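Itgax in CKp25 mice at 6 weeks had 1 mouse far from the others, at 3.38 in mean log2(FPKM + 1), against 2.05, 2.17 and 2.14 in the other CKp25 mice of that week. Itgb1 in CKp25 mice at 6 weeks likewise had 1 mouse apart, at 2.73, against 1.68, 1.61 and 1.63. These are different mice, and chance marks about 1 in 20 groups in this way.

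The genotype effect on Itgax differed between weeks in limma. It was larger by 2.26 at 2 than at 0 weeks, by 1.91 at 6 than at 0 weeks and by 2.04 at 2 than at 1 week.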

How the results depend on the processing

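Across 41 alternatives Itgax was called higher in CKp25 mice at 2 and 6 weeks in all of them, with adjusted p of at most 2.34e-05 and 0.000915. Of 34 uncalled gene and week pairs, 14 changed sign and 4 were called in at least 1 alternative, and causes were not tested. Mouse numbers were not treated as pairing. The correlations of same-numbered mice ran from -0.119 to 0.348, and all were positive apart from that of mouse 3 at 6 weeks. With a replicate block the Itgax difference was 2.29 at 2 weeks and 1.63 at 6 weeks, and no call changed.

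With the median genes per cell as a covariate, 1 gene was called higher at 1 week and 2 lower at 6 weeks, against 0 and 0. Without the gene filter 2 were called higher at 2 weeks, against 1. At 6 weeks 1 was called lower with wells rescaled to a sum of 1000000, with or without Rn45s, 2 with quantile normalization and 1 with limma without trend and robust. With the log2 of the mean FPKM, 0 were called for the genotype effect at 6 minus 0 and 2 minus 1 weeks, against 1 each, where Itgax was 2.54 and 2.83 (adjusted p of 0.0623 and 0.0883). In CKp25 mice at 1 minus 0 weeks 0 were called, against 1, with a pseudocount of 10, no gene filter, either rescaling, log2 of the mean FPKM, shares of cells, quantile normalization, the covariate, or limma without trend and robust. Itgb1 there was 0.69, 1.29, 1.43, 1.46, 0.96, 18.5 percentage points, 0.75, 0.92 and 1.29 in that order. In CKp25 mice 2 were called at 2 minus 0 and at 2 minus 1 weeks without the gene filter, against 1 each. At 6 minus 0 weeks 3, 2 and 3 were called with quantile normalization, the covariate and limma without trend and robust, and at 6 minus 2 weeks 1 with the last, against 1 and 0.

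Itgb1 at 1 week was called with the covariate (1.18), and at 6 weeks with quantile normalization (-1.19) and the covariate (-1.17). Itgam at 6 weeks was called with both rescalings (-1.50 and -1.51), quantile normalization (-1.39), the covariate (-1.20) and limma without trend and robust (-1.16).

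Leaving out single mice gave 0 to 1 called higher at 1 week, 1 to 2 higher at 2 weeks and 0 to 1 lower at 6 weeks. In CKp25 mice it gave 0 to 1 at 1 minus 0 weeks, 1 to 2 at 2 minus 0 weeks and 1 to 2 at 6 minus 0 weeks. Single differences ranged at 0 weeks from -0.32 to 0.19 (Itgam), -0.021 to 0.25 (Itgb2), -0.020 to 0.067 (Itgax), -0.31 to 0.22 (Itga6), -0.15 to 0.16 (Itgav) and -0.27 to 0.0081 (Itgb1). At 1 week they ranged from -0.090 to 0.32 (Ptprc), -0.41 to 0.31 (Itgb2) and -0.11 to 0.38 (Itgav), and at 2 weeks from -0.61 to 0.096 (Itgb1) and -0.61 to 0.12 (Itgb5). Itgax ranged from -0.41 to 0.036 in CKp25 at 6 minus 2 weeks and from -0.047 to 0.023 in CK at 1 minus 0 weeks.

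Uncalled signs also turned elsewhere. At 0 weeks Itgam was 0.021 with a well filter of 1500 genes, 0.37 points in share and 0.060 with quantile normalization. Itgb2 was -0.029 with a pseudocount of 10 and -0.22 with log2 of the mean FPKM, Itgax -0.049 with that setting too, and Itgb1 1.90 points in share. Itgav was -0.047, -0.31 and -0.061 with a pseudocount of 10, log2 of the mean FPKM and quantile normalization. At 1 week Ptprc was -0.050 with a pseudocount of 10 and -0.35 with log2 of the mean FPKM. Itgb2 was -0.0062 and -0.051 with pseudocounts of 0.1 and 10, -0.45 with log2 of the mean FPKM, -1.49 points in share and -0.026 without cells with other markers. Itga4 was 0.12 with log2 of the mean FPKM, Itgav -0.028 points in share and Itgb5 0.015 rescaled without Rn45s. At 2 weeks Itga4 was 0.18 with log2 of the mean FPKM and Itgb5 0.20 points in share. The change of the Itgax effect at 6 minus 2 weeks was 0.028 with quantile normalization. Itgax in CKp25 mice at 6 minus 2 weeks was 0.10 with a well filter of 1500 genes, 0.015 without cells with other markers and 0.37 with quantile normalization. The log2 of the mean FPKM moved the median of all genes by -0.23, -0.35 and -0.14 at 1, 2 and 6 weeks. Read depth per value is unknown, so a gene at 0 in a cell is not shown to be absent.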
